A study of Mus musculus with 6 samples.

Results

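miR-223 was followed as a single probe, mmu-miR-223, chosen by its name among the 566 mouse miRNA probes of the panel, in all 6 samples of a study of estrogens in lupus-prone mice. Earlier results of these data were known when it was chosen. Total RNA came from splenocytes of female NZB/WF1 mice, a hybrid that spontaneously develops a lupus-like autoimmune disease. At 6 to 7 weeks of age the mice received an implant holding 17-beta estradiol (E2, the natural hormone), an implant holding 17alpha-ethinyl estradiol (EE, a synthetic estrogen that carries an added ethinyl group), or an empty implant (placebo), and spleens were taken after 9 weeks. Each group had 2 samples. All groups share the strain, the sex and the implant procedure, so no sample stands for a healthy strain or for a male. The sources used here state neither the dose in an implant nor whether a sample is 1 mouse or a pool, and p-values therefore measure only the spread between these samples, which may be technical.

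miR-223 is a miRNA of the myeloid lineage, most abundant in neutrophils and also found in monocytes and platelets. Its gene is switched on during granulocyte differentiation by the transcription factors PU.1 and C/EBP alpha. In mice it restrains the proliferation of granulocyte progenitors through Mef2c and dampens inflammation through the inflammasome component Nlrp3. In the spleen, neutrophils, monocytes and macrophages of the red pulp are known to carry it, whereas lymphocytes, the majority of splenocytes, carry little of it.

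The sequences below show what the probe name stands for and which other miRNAs the results turn on. They are RefSeq sequences of build GRCm38.p6, written 5′ to 3′. In the mature sequences the capitals mark the seed, bases 2 to 8, the stretch that pairs with target mRNAs. The miR-23a, miR-27a and miR-24 sequences are shown because these miRNAs are also enriched in myeloid cells, and miR-144 and miR-451 because they rose in the same samples.
miR-223-3p: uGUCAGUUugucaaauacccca
miR-223-5p: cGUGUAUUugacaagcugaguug
miR-23a-3p: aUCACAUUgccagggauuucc
miR-27a-3p: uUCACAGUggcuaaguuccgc
miR-24-3p: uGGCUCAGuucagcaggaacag
miR-144-3p: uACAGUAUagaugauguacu
miR-451a: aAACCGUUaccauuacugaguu

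The panel lists miR-223 without an arm, and under the older naming that name means the 3p arm. It was the only miR-223 probe, so the 5p arm was not measured separately. Of 1679 mature mouse miRNA names in the RefSeq table, 1 had the seed GUCAGUU, miR-223-3p itself. With the shorter seed of bases 2 to 7, the number was 2, the other being miR-344f-5p. The gene Mir223 lies on the X chromosome, at chrX:96242817-96242926 on the plus strand, inside the span of the long noncoding RNA gene F630028O10Rik. The hairpin of 110 bases, with the 3p arm at its bases 68 to 89 in capitals, shows that arm on the 3′ side of the stem.
Mir223 hairpin: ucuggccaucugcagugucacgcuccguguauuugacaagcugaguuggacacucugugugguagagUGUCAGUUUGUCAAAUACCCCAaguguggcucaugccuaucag

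The values are normalized nCounter counts, in which colour-coded barcodes bound to each miRNA are counted one molecule at a time. How far they were scaled by the submitters is not stated, and the raw depth is unknown, so counting error could not be given. Summed over all probes they ranged from 167152 to 205209 per sample. A detection floor of 53.3 normalized counts was set from 8 negative control probes, and 95 mouse miRNAs had a mean above it and were tested. The lymphocyte miRNA miR-150 had the highest count of any miRNA in every sample, between 14140 and 44123. That goes with the splenocyte label, but a single marker of lymphocytes does not identify the tissue.

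miR-223 stood far above the floor in every sample. The placebo samples had 1308 and 911 normalized counts, the EE samples 1984 and 2042, and the E2 samples 3522 and 3244. The 3 groups did not overlap: both placebo samples lay below both EE samples, and both EE samples below both E2 samples. The lowest value, in placebo sample 2, was still 17.1 times the floor and 21.2 times the highest negative control of that sample. The means were 1110 ± 281 with placebo, 2013 ± 41.0 with EE and 3383 ± 197 with E2 (SD, n = 2 each). These are levels in bulk splenocyte RNA, in which more cells that carry miR-223 and more miR-223 per cell cannot be told apart.

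**Figure D1:**
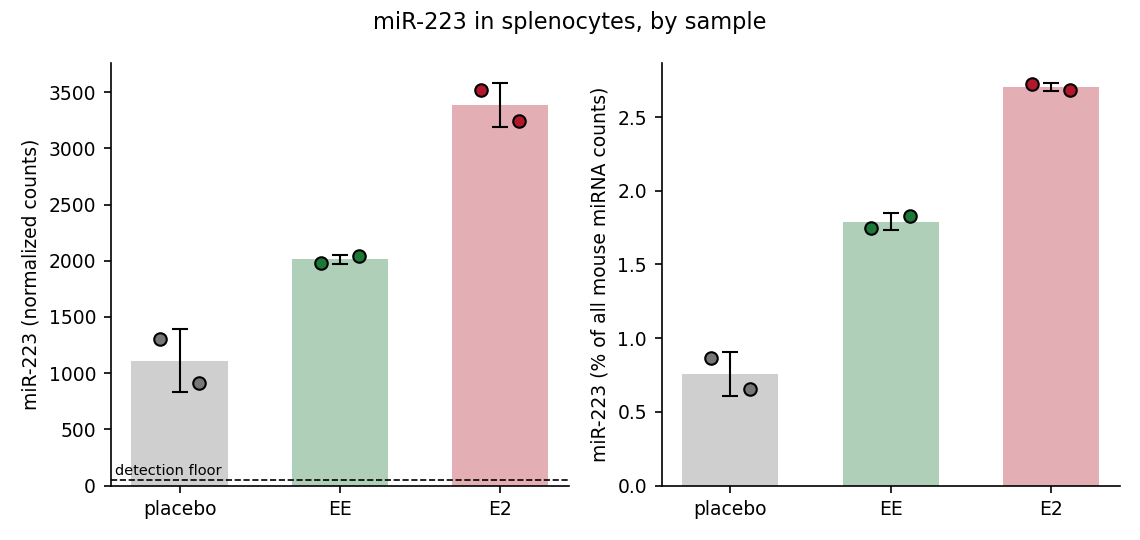
miR-223 in each splenocyte sample, as normalized counts (left, with the detection floor of 53.3 as a dashed line) and as a percentage of all mouse miRNA counts of the sample (right). Points are samples, bars are group means and error bars are the SD of 2 samples. The placebo samples lie lowest, at 1308 and 911, and the E2 samples highest, at 3522 and 3244.

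Expressed as a share of all mouse miRNA counts in a sample, miR-223 made up 0.865% and 0.655% with placebo, 1.75% and 1.83% with EE, and 2.72% and 2.69% with E2. The order of the groups was the same as for the normalized counts. Because miR-150 alone took a large and changing part of the counts, the share was also computed without it, as 1.22% and 0.876% with placebo, 2.02% and 2.09% with EE, and 3.35% and 3.31% with E2. Among the 566 mouse probes miR-223 ranked 20 and 25 by count in the placebo samples, 17 and 18 in the EE samples, and 10 and 8 in the E2 samples. Probes differ in how well they capture their miRNA, so these ranks describe counts, not molecules per cell.

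The samples of a group lay close together with either estrogen and further apart with placebo. On the log2 scale the 2 samples differed by 0.04 with EE, by 0.12 with E2 and by 0.52 with placebo. The median difference over the 95 tested miRNAs was 0.16, 0.18 and 0.22 in these groups. In placebo, 13 other miRNAs were more spread than miR-223, against 84 in EE and 64 in E2. Its placebo samples thus lay furthest apart of the 3 groups, and the placebo level enters both comparisons with placebo. A gap between 2 samples is itself uncertain, and the limma fit pools the spread over the groups. Over all 6 samples the highest value was 3.86 times the lowest, and miR-223 had rank 6 by the SD of log2 values, 0.75 against a median of 0.25 over all tested miRNAs.

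The first comparison asked how the natural hormone changed miR-223. With E2, miR-223 rose 3.09-fold over placebo, a log2 fold change of 1.63 ± 0.18 (SE, 95% interval 1.22 to 2.04). Fold changes are differences between means of log2(value + 1). In limma's moderated test fitted over 95 miRNAs the Benjamini-Hochberg adjusted p was 1.13e-04. Of all tested miRNAs 4.21% passed in this direction, and 17.9% had both E2 samples above both placebo samples. By fold change miR-223 had rank 4 from the top. In all 10.5% passed in either direction, and 6.32% as lower. The next above it were the erythroid miRNAs miR-451 (log2 fold change 2.24) and miR-144 (2.68). The next below were miR-376a (0.96, adjusted p 0.370), whose E2 samples stood at 35 and 230 normalized counts, and miR-2141 (0.75, adjusted p 0.0550), neither past the threshold of 0.05. The tested miRNAs had a median log2 fold change of -0.20, and miR-223 lay 1.83 log2 units above that centre.

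The second comparison asked the same of the synthetic estrogen. With EE, miR-223 rose 1.84-fold over placebo, a log2 fold change of 0.88 ± 0.18 (SE, 95% interval 0.48 to 1.29), with a limma adjusted p of 0.00424. In this comparison 10.5% of tested miRNAs passed as higher, and 26.3% had both EE samples above both placebo samples. In all 26.3% passed in either direction, and 15.8% as lower. By fold change miR-223 had rank 7. The miRNAs next above it were the endothelial miR-126-3p (log2 fold change 1.07) and miR-93 (0.94), of a cluster linked to cell proliferation, and those next below were miR-709 (0.75) and miR-148a (0.69), all past the threshold. The calls of miR-709 and miR-148a were less stable and ended under 7 of 19 and 9 of 20 alternatives. Without EE sample 1 or EE sample 2 the adjusted p-values were 0.0592 and 0.0798 for miR-709 and 0.175 and 0.0526 for miR-148a. Without placebo sample 1 it was 0.0690 for miR-709, and without placebo sample 2 it was 0.0640 for miR-148a. The EE call for miR-223 ended under 3 of 20 alternatives, with rescaling by the median tested miRNA (adjusted p 0.0531), quantile normalization (0.0858) and ligation controls (0.180). Both comparisons use the same placebo samples and are not independent. With E2 and EE together against placebo, the log2 fold change was 1.26 ± 0.16 (SE, adjusted p 1.86e-04), where 23.2% of miRNAs passed in either direction, 9.47% as higher, and 14.7% had all estrogen samples above both placebo samples.

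**Figure D2:**
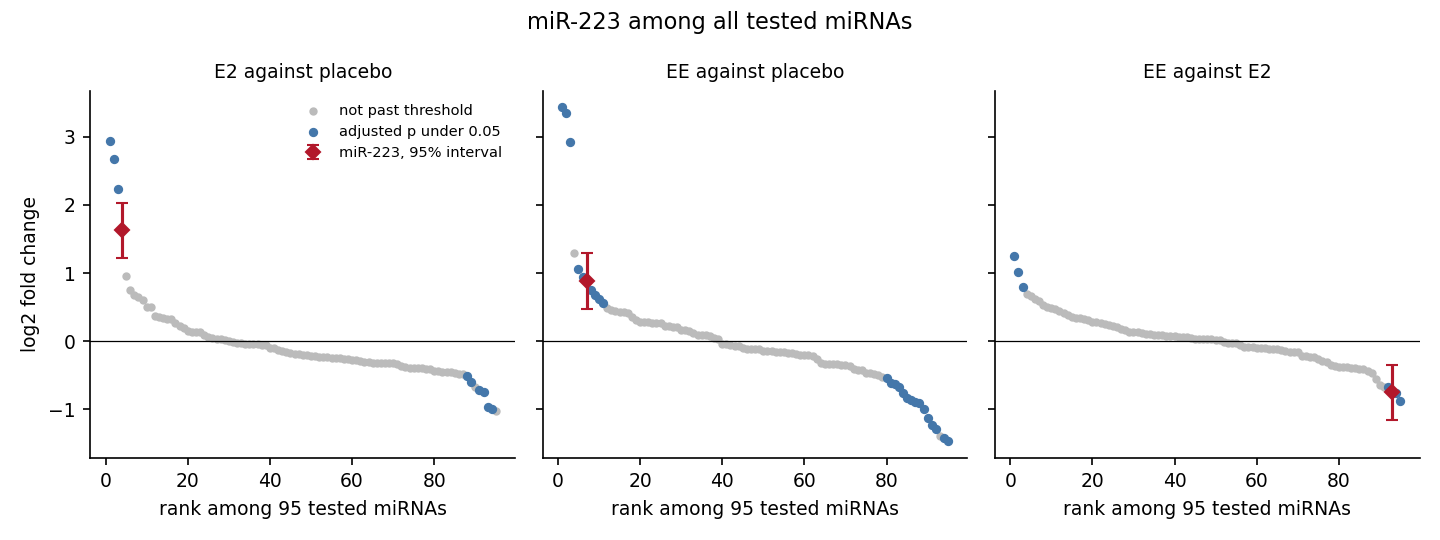
log2 fold changes of the 95 tested miRNAs, ordered from highest to lowest, in each comparison. Blue points passed an adjusted p of 0.05, grey points did not, and the red diamond is miR-223 with its 95% interval. miR-223 stands at 1.63 with E2 and at 0.88 with EE against placebo, and near the low end, at -0.75, with EE against E2.

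The third comparison set the 2 estrogens against each other, which differ by the ethinyl group of EE. Whether the doses were matched is not known. miR-223 was lower with EE than with E2, with a log2 difference of -0.75 ± 0.18 (SE, 95% interval -1.15 to -0.34) and a limma adjusted p of 0.0320. EE samples thus had 0.596 times the E2 level. Of all tested miRNAs 7.37% passed in either direction and 4.21% as lower with EE, and 30.5% had both EE samples below both E2 samples. miR-223 ranked 93 of 95, beside the lymphocyte miRNAs miR-181a (-0.76) and miR-150 (-0.67). This call was the least stable of the 3. It ended under 10 of 20 alternatives, among them leaving out E2 sample 1 (adjusted p 0.211), E2 sample 2 (0.144), EE sample 1 (0.0786) or EE sample 2 (0.0890). The difference kept its sign in all 20, from -1.27 with ligation controls to -0.44 with housekeeping mRNAs. Not all of the 20 could have turned it. Changes of filter or variance model, pairwise fits and leaving out a placebo sample do not move this estimate. Leaving out an E2 or EE sample cannot reverse groups that do not overlap.

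The order placebo, then EE, then E2, with no overlap between neighbouring groups, was shown by 1 of 95 tested miRNAs (1.05%), miR-223 itself, and 0 had the reverse order. Probes with a mean under the floor were not counted. Among them miR-196b, a myeloid miRNA whose values are given below, also had this order. Under 6 rescalings of the samples, a check added after the values were seen, miR-223 kept this order in every one, and the number of miRNAs in the order ran from 1 to 4. The miRNAs that joined it were miR-1949, miR-2141, miR-709, miR-19a and the combined probe for miR-1937a and miR-1937b, each under 1 or 2 of the rescalings.

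miRNAs with a like pattern were sought by the root mean square distance between log2 profiles over the 6 samples, each centred on its own mean. The nearest were miR-2141 (distance 0.40), miR-148a (0.47), miR-1949 (0.47), miR-15a (0.48) and miR-709 (0.51), against a median distance of 0.80 over 94 miRNAs. With E2 their log2 fold changes were 0.51 to 0.75 against 1.63 for miR-223. With EE miR-709 (0.75) and miR-148a (0.69) lay near the 0.88 of miR-223, and miR-2141 was at 0.08. miR-2141 had 171 and 111 normalized counts with placebo, 156 and 137 with EE and 243 and 223 with E2, so its EE samples lay within the placebo range. miR-15a, a relative of miR-16 that limits cell division, had 1223 and 962 with placebo, 1759 and 1444 with EE and 1617 and 1472 with E2. Its EE and E2 samples overlapped. When each profile was also divided by its own SD, so that only shape counted, the nearest were miR-2141, the combined probe for miR-20a and miR-20b, miR-25, miR-486 and miR-15a. The erythroid miRNAs miR-144 and miR-451 came at ranks 7 and 8. With 6 samples and 94 candidates, these distances are descriptions of the samples.

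**Figure D3:**
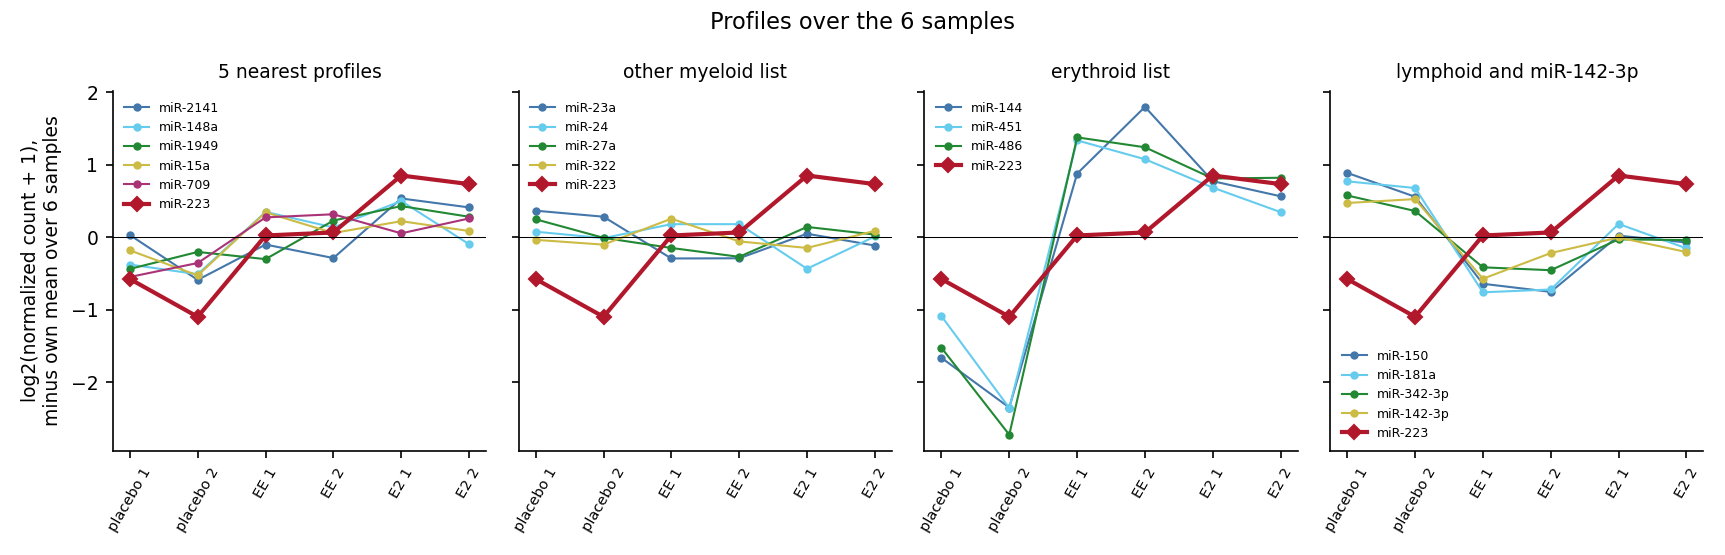
log2(normalized count + 1) of each miRNA minus its own mean over the 6 samples, for miR-223 (red diamonds) and, from left to right, its 5 nearest profiles, the other tested myeloid miRNAs, the erythroid miRNAs, and the lymphoid miRNAs with miR-142-3p. Lines join samples for reading only. The other myeloid miRNAs vary less than miR-223, and miR-23a among them is highest with placebo and lowest with EE. The erythroid list is highest with EE, and the lymphoid list is highest with placebo.

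Other miRNAs enriched in myeloid cells were read beside miR-223. The list held 8 probes, of which 5 had a mean above the floor. Of all tested miRNAs 4.21% were called higher with E2 and 10.5% with EE, so the lack of other higher calls in so short a list is near the background. With E2 1 of these 5 was higher, miR-223, none was lower and 4 did not pass, with a list median of -0.03 against -0.20 for all tested miRNAs. With EE 1 was higher, again miR-223, and 1 was lower, miR-23a, with a median of 0.15 against -0.11. The sign of the E2 median turned under 4 of 6 rescalings and that of the EE median under 1, with ligation controls. Without miR-223, the summed counts of the list were 1544 and 1389 with placebo, 1358 and 1287 with E2, and 1176 and 1118 with EE, so they were highest in the group where miR-223 was lowest. Most of each sum came from miR-23a and miR-27a, and the sums were not recomputed under the rescalings. The low count of miR-196b, within the sums, went the other way and was lowest with placebo.

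Within that list, miR-23a, miR-27a and miR-24 come from one cluster that PU.1 also regulates, with a second copy of miR-24 elsewhere in the genome. miR-23a had 803 and 758 normalized counts with placebo, 644 and 575 with E2 and 508 and 509 with EE. It fell with EE by 0.62 on the log2 scale (limma adjusted p 0.0186), and with E2 the log2 fold change was -0.36 (adjusted p 0.221). The EE call for miR-23a ended under 8 of 20 alternatives, leaving out EE sample 1 (adjusted p 0.110), EE sample 2 (0.0909) or placebo sample 1 (0.0502) among them. miR-27a had 566 and 474 with placebo, 526 and 489 with E2 and 430 and 395 with EE, with log2 fold changes of -0.03 and -0.33 that did not pass. miR-24, between 46 and 71 in all samples, and miR-322, between 61 and 81, lay close to the floor, and neither passed in either comparison.

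A further myeloid miRNA fell just short of the filter. miR-196b, encoded in the Hoxa cluster and expressed in myeloid progenitors, had a mean of 50.3 normalized counts against the floor of 53.3 and so was not tested. Its values were 26 and 16 with placebo, 66 and 70 with E2 and 62 and 62 with EE. All 4 estrogen samples lay just above the floor and both placebo samples below it. In the fit without a detection filter, over 566 probes, its log2 fold changes were 1.69 ± 0.26 with E2 (SE, adjusted p 0.0250) and 1.56 ± 0.26 with EE (SE, adjusted p 0.0176). Both placebo values are within the range of the negative controls, so the size of the difference is uncertain. For miR-196b both E2 samples lay above both EE samples, by a small margin (log2 difference -0.13, 95% interval -0.73 to 0.47, adjusted p 0.955). In the same limma fit the difference for miR-223 was -0.75 and did not pass either (adjusted p 0.253). The contrast between the 2 miRNAs was not tested. The other untested members, miR-503 and miR-130a, stood between 4 and 12 in every sample.

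The list of miRNAs reported to depend on PU.1 or C/EBP alpha shares miR-223, miR-23a, miR-27a, miR-24 and miR-322 with the myeloid list and adds 5 others. Of its 8 tested members, 1 rose with E2, miR-223, and 1 fell, miR-342-3p. With EE 1 rose, miR-223, and 3 fell, miR-342-3p, miR-23a and miR-30c. Over all tested miRNAs, 4.21% were called higher and 6.32% lower with E2, and 10.5% higher and 15.8% lower with EE. The medians were -0.24 with E2, which turned positive with ligation controls, and -0.34 with EE, against -0.20 and -0.11 for all tested miRNAs. miR-30c, a C/EBP alpha target of the granulocyte lineage, had 1340 and 1129 normalized counts with placebo, 1123 and 965 with E2 and 846 and 754 with EE. It fell with EE by 0.62 on the log2 scale (limma adjusted p 0.0222), a call lost under 8 of 20 alternatives. In 3 of these a sample was left out, EE sample 1 (adjusted p 0.0541), EE sample 2 (0.134) or placebo sample 1 (0.0893). miR-342-3p, also abundant in lymphocytes, had 4616 and 3979 with placebo, 3033 and 3013 with E2 and 2321 and 2258 with EE. It fell by 0.50 with E2 (adjusted p 0.0411), a call that ended under 14 of 20 alternatives, and by 0.90 with EE (adjusted p 8.65e-04), a call that held under all 20. The 14 included leaving out any single sample except placebo sample 2, with adjusted p-values of 0.0599 to 0.230. miR-146a, a brake on Toll-like receptor signalling, had 3604 and 3560 with placebo, 3184 and 2605 with E2 and 2658 and 2990 with EE, and did not pass in either comparison (adjusted p 0.221 and 0.128). miR-34a and miR-338-3p lay under the floor.

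miRNAs induced by NF-kB in inflammation include several that are expressed in myeloid cells. Of 6 probes 3 were tested, and limma called 0 with either estrogen, where 10.5% of all tested miRNAs were called with E2 and 26.3% with EE, although 1 had an unadjusted p under 0.05 in each comparison with placebo. No other tool was run. With 3 members tested, a count of 0 is near those shares. The medians were -0.41 with E2 and -0.35 with EE, against -0.20 and -0.11 for all tested miRNAs. miR-21 had 2266 and 2586 normalized counts with placebo, 1895 and 1755 with E2 and 2450 and 2710 with EE (adjusted p 0.109 and 0.634). miR-155 had 111 and 204 with placebo, 94 and 57 with E2 and 20 and 159 with EE, so both E2 samples lay below both placebo samples, but the EE samples spanned the other groups, and neither comparison passed (adjusted p 0.335 and 0.172). miR-9, miR-132 and miR-146b lay under the floor.

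Markers of other cells of the spleen moved with the treatments in which miR-223 rose. For the calls below, the shares over all tested miRNAs were 4.21% higher and 6.32% lower with E2. With EE they were 10.5% higher and 15.8% lower. The 3 erythroid miRNAs, highly expressed in red cell precursors, summed to 1393 and 596 normalized counts with placebo, 5230 and 4376 with E2 and 7933 and 7187 with EE, and all 3 rose with each estrogen. With E2, 2 of these calls ended under a robust trend, that of miR-486 at an adjusted p of 0.0522 and that of miR-451 at 0.116. Their sum was highest with EE, whereas miR-223 was highest with E2. None of the 3 erythroid miRNAs passed in EE against E2 (limma adjusted p 0.234 for miR-144, 0.243 for miR-451 and 0.379 for miR-486). Of the 4 lymphoid probes 3 were tested and all 3 fell with each estrogen (miR-150, miR-342-3p, miR-181a). The E2 call of miR-181a (adjusted p 0.0230) ended under 5 of 20 alternatives, with adjusted p-values of 0.0687 to 0.772, and among these was leaving out E2 sample 2 (0.230). The E2 call of miR-150 ended under 4 of 20, with median rescaling (0.109), ligation controls (0.772), quantile normalization, which sets the highest miRNA equal in all samples, and no filter (0.105). Its EE call ended with quantile normalization alone. The 4 summed to 50790 and 41024 with placebo, 28621 and 26775 with E2 and 18335 and 17142 with EE. Platelets also carry miR-223. Of 4 megakaryocyte and platelet probes 2 were tested, miR-126-3p, which rose with EE, and miR-10a, which did not pass. With E2 neither of the 2 passed. The 4 summed to 255 and 259 with placebo, 245 and 313 with E2 and 299 and 310 with EE, with miR-126-5p and miR-130a between 4 and 13 in every sample. The part of these cells in the miR-223 result was not tested.

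Ratios between 2 miRNAs counted in the same sample do not depend on how that sample was scaled. Over miR-142-3p, which is made in all blood cell lineages, miR-223 stood at 0.186 and 0.125 with placebo, 0.581 and 0.468 with EE and 0.695 and 0.736 with E2. The group means of log2 ratios were 4.70-fold higher with E2 and 3.43-fold higher with EE than with placebo, and no groups overlapped. The other arm of the same hairpin, miR-142-5p, gave smaller rises. It was counted at 93 and 100 with placebo, 114 and 133 with E2 and 125 and 108 with EE, and its log2 fold changes of 0.35 and 0.27 did not pass (limma adjusted p 0.227 and 0.343). Over miR-142-5p, a partner added after the values were seen, miR-223 was 2.43-fold higher with E2 and 1.53-fold higher with EE, and no groups overlapped. Without placebo sample 2 the log2 ratio difference with EE was 0.30 in place of 0.61. miR-142-3p itself fell with both estrogens, by 0.60 with E2 (limma adjusted p 0.0245) and by 0.90 with EE (adjusted p 0.00124). The E2 call of miR-142-3p ended under 7 of 20 alternatives, leaving out E2 sample 1 (adjusted p 0.0642) or E2 sample 2 (0.236) among them, and the EE call under none. Over miR-16, a widely expressed miRNA, the rise of miR-223 was 3.39-fold with E2 and 2.06-fold with EE. Over its myeloid companions it was 3.97-fold and 2.83-fold for miR-23a, 3.16-fold and 2.32-fold for miR-27a, and 3.68-fold and 1.66-fold for miR-24. The groups did not overlap in any of these ratios. miR-223 alone already kept the groups apart, so the ratios are not independent of that result. With 2 samples on each side, the smallest two-sided p that exact permutation allows is 0.333, which each of these differences reached.

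The lymphocyte miRNA miR-150 gave another picture of the 2 estrogens. Over miR-150, miR-223 stood at 0.0296 and 0.0259 with placebo, 0.130 and 0.144 with EE and 0.145 and 0.143 with E2. The ratio was 5.20-fold higher with E2 and 4.94-fold higher with EE than with placebo. Between EE and E2 the samples overlapped, with a log2 difference of -0.07, smaller than the SD of 0.08 within groups (exact permutation p 0.667). miR-223 and miR-150 were thus lower with EE than with E2 by about the same factor. Over the erythroid miR-451 the ratio went the opposite way. It was 1.16 and 1.95 with placebo, 0.913 and 1.06 with E2 and 0.327 and 0.404 with EE, lowest with EE and with no overlap between groups. Over the erythroid miR-486 the ratio with E2 was 0.400 times and with EE 0.169 times that with placebo, again with no overlap.

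**Figure D4:**
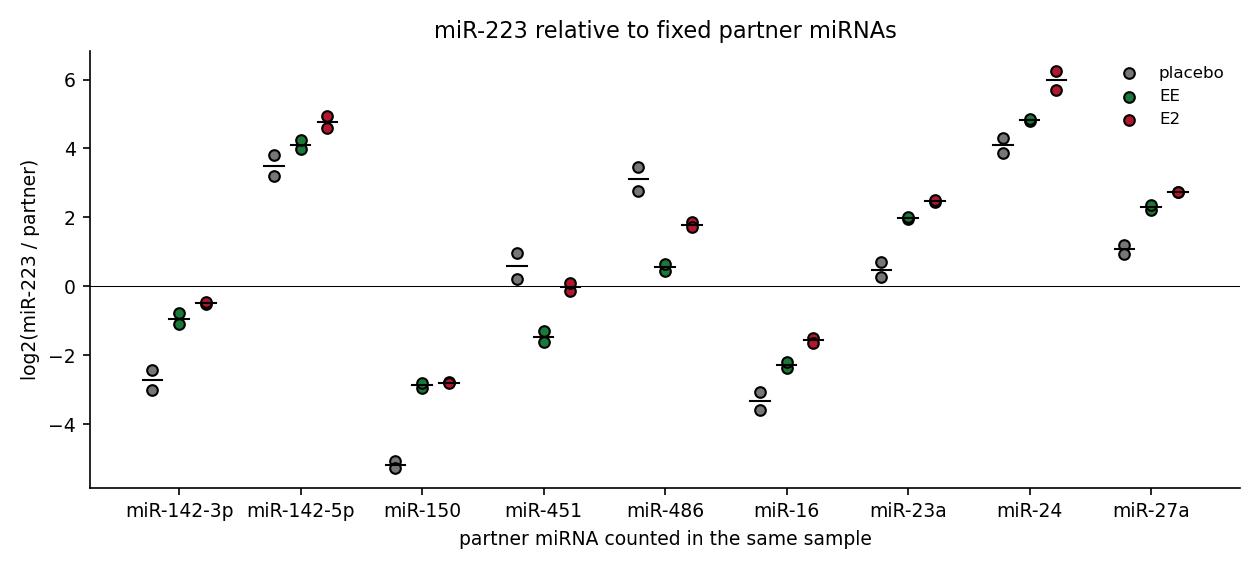
log2 ratio of miR-223 to each of 9 partner miRNAs counted in the same sample, with points for samples and short lines for group means. For miR-142-3p, miR-142-5p, miR-16, miR-23a, miR-24 and miR-27a the groups rise from placebo to EE to E2, for miR-150 the EE and E2 samples overlap, and for miR-451 and miR-486 placebo lies highest and EE lowest.

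miR-223 was also set beside other miRNAs of its chromosome. By name, 85 of 95 tested probes could be assigned to a miRNA gene of the RefSeq table, and 7 of them had all their loci on the X chromosome. The 6 other than miR-223 were miR-532-5p, miR-98, miR-374, miR-652, miR-322 and miR-1198. Their log2 fold changes ran from -0.24 to 0.14 with E2 and from -0.47 to 0.23 with EE. limma called 0 of them in any comparison, against 10.5% of all tested miRNAs with E2, 26.3% with EE and 7.37% for EE against E2, and 1, miR-532-5p with EE, had an unadjusted p under 0.05. With 6 members, a count of 0 is not far from those shares. No other tool was run.

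The size of the miR-223 change depended both on the scaling and on single samples. With E2 the log2 fold change ran from 1.37 without placebo sample 2 to 1.95 with ligation controls, and it passed under all 20 alternatives, with adjusted p-values up to 0.0137. With EE it ran from 0.62 without placebo sample 2 to 1.14 without placebo sample 1. It stayed positive in all 20, not all of which could have turned it. Leaving out placebo sample 2 gave the lowest value in both comparisons and leaving out placebo sample 1 the highest with EE. Rescaling shifts all miRNAs of a sample alike, and so miR-223 lay 1.83 log2 units above the median tested miRNA with E2 under each of the 6 rescalings.

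**Figure D5:**
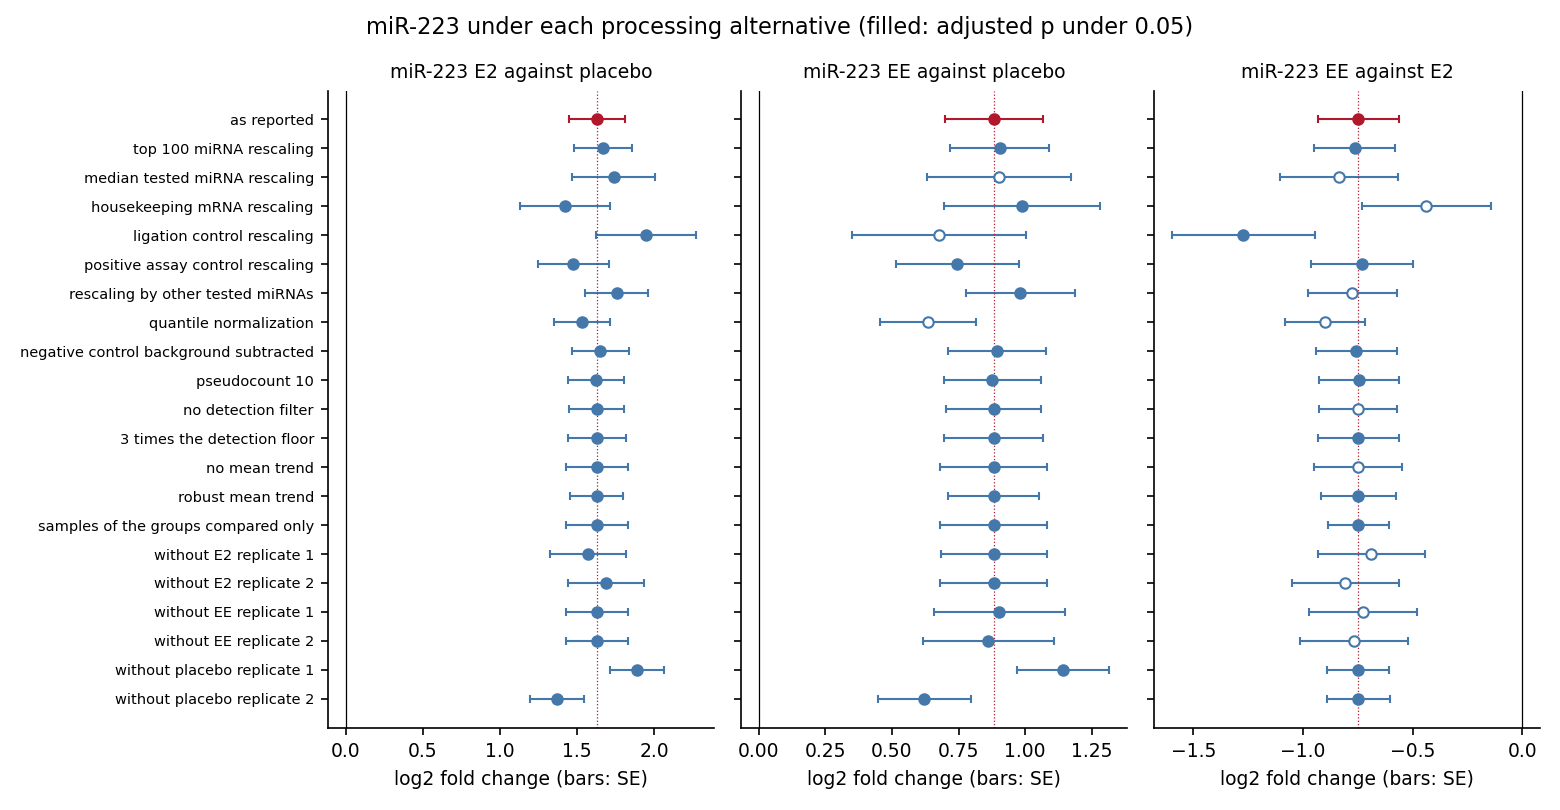
log2 fold change of miR-223 (with SE) as reported (red) and under 20 processing alternatives (blue) in each comparison. Filled points passed an adjusted p of 0.05 and open points did not, and the solid line marks no change. All E2 points are filled, 3 EE points are open, and 10 points are open for EE against E2.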

How the data were processed

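Splenocyte total RNA was profiled with the nCounter mouse miRNA assay, version 1.5, per the labels. What the authors deposited is a score for each probe in whole numbers, read here as rounded normalized counts. No source used here names the normalization. The geometric mean of the 100 highest miRNAs differed by at most 3.54% between samples and the summed positive controls by 30.6%, so the scores were not treated as raw counts and no count model was fitted.

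limma 3.58.1 in R 4.3.3 was fitted to log2(value + 1) over all 6 samples and 3 groups, with eBayes and a mean trend. Tested were the 95 of 566 mouse miRNA probes with a mean above the mean + 2 SD of 8 negative controls. Tests were two-sided with Benjamini-Hochberg adjustment over 95 miRNAs and a threshold of 0.05. The fit was tested on simulated data. Alternatives were 7 other scalings, background subtraction, no filter, 3 times the floor as filter, a pseudocount of 10, 2 other variance models, pairwise fits and leaving out each sample.

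Named were miR-223, tested members of the lists, the 5 nearest profiles by each of 2 distances, the 2 neighbours on each side in the fold-change ranking, and miRNAs of the X chromosome. Members and lists were chosen, from background knowledge, with earlier results of these data known. Untested list members, and miRNAs that joined the order of groups after rescaling, were named after their values were seen. No test for outlying samples exists with 2 per group. The miR-142-5p ratio, ratio alternatives, rescaled list medians and the rescaled order were added after seeing the data.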

Additional observations from a re-analysis of the deposited data

How the results depend on the processing

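The E2 rise of miR-223 and that of both estrogens together kept their direction and their call under every alternative run (20 and 19). The EE rise was 0.90 with median rescaling, 0.68 with ligation controls and 0.63 with quantile normalization, past the threshold in none of these. The EE against E2 difference lost its call at -0.84 with median rescaling, -0.44 with housekeeping mRNAs, -0.77 with rescaling by the tested miRNAs outside the erythroid and lymphoid lists, -0.90 with quantile normalization, and at an unchanged -0.75 without the detection filter or the mean trend. Leaving out a sample gave 1.37 to 1.89 with E2, 0.62 to 1.14 with EE, -0.81 to -0.69 for EE against E2 and 0.995 to 1.52 for both estrogens. Changes of filter or variance model and pairwise fits leave these estimates unmoved. Leaving out 1 sample cannot turn the sign where groups do not overlap, so a kept direction says little there. The cause of these losses was not tested. Without the filter the adjustment ran over 566 probes, and the SE of miR-223 was 0.179 in place of 0.184.

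The number of miRNAs called with E2, 10 as reported, was 4 with median rescaling, 4 with ligation controls, 5 without the filter and 6 to 12 when a sample was left out (6 without E2 sample 1). With EE it was 25, and 15 with median rescaling, 16 with housekeeping mRNAs, 11 with ligation controls, 14 without the filter, 16 at 3 times the floor and 15 to 23 when a sample was left out (15 without EE sample 2). For EE against E2 it was 7, and 0 with median rescaling or without the filter, where 18 of 95 had an unadjusted p under 0.05 in the reported limma fit, 3 with ligation controls and 12 with the compared groups alone. That count was 0 without E2 sample 1, 1 without E2 sample 2, 4 without either EE sample and 12 without either placebo sample. For both estrogens it was 22, and 13 with median rescaling, 14 with housekeeping mRNAs, 7 with ligation controls, 11 without the filter and 14 to 21 when a sample was left out (14 without either E2 sample).

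Rescaling moved the median of all tested miRNAs by up to 0.32 log2 units with E2 (ligation controls), 0.20 with EE and 0.52 for EE against E2. The ratios of miR-223 to its partners moved by less than the spread within groups with background subtraction. Leaving out 1 of 2 samples cannot exceed that spread and says nothing about their stability. For other named miRNAs, changes of filter or variance model leave an estimate unmoved and so cannot reverse it. Of 24 differences past the threshold for other named miRNAs, 476 recomputed values gave 0 reversals, and 107 lost the call. Of 72 differences that did not pass, 17 passed under some alternative, in 51 of 1402 values, and 106 values changed sign. No paired analysis was possible because the labels give the groups no shared replicate numbers. The raw depth is unknown, and with 2 samples a group the placebo level rests on values of 1308 and 911.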
